A study of Rattus norvegicus with 9 samples.

Results

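The keratin family was examined in prostates of rats with benign prostatic hyperplasia (BPH) induced by androgen. Members were all probes whose RefSeq accession belongs to a rat gene named Krt followed by a number, without the genes of keratin-associated proteins. This gave 46 probes for 44 genes among 30356 probes on the array. RefSeq lists 55 protein-coding keratin genes of the rat, of which these are 44. They were separated into 4 luminal keratins (Krt7, Krt8, Krt18, Krt19), 4 basal keratins (Krt5, Krt14, Krt15, Krt17) and 36 others. The others comprised 3 further keratins of simple epithelia, 10 keratins of suprabasal, squamous or stressed epithelia, 14 keratins of the hair shaft, 7 of the inner root sheath of hair, and 2 that were given no class (Krt6c, Krt90).

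RNA of whole prostates of male Sprague Dawley rats had been hybridized to 9 Agilent one-colour arrays, 3 per group. Sham rats underwent a sham operation and received corn oil under the skin and water by mouth. BPH rats were castrated, injected daily with dihydrotestosterone (DHT, 3 mg/kg) for 4 weeks, and received water by mouth. BPH+ghrelin rats received the same castration and DHT, and in addition the peptide hormone ghrelin by gavage (20 nmol/kg daily) during the last 2 weeks, as the methods state, while a legend of the study gives another dose and injection into the peritoneum. All rats had been 6 weeks old at purchase. Castration and DHT always came together, so that their effects cannot be told apart, and hyperplasia in this model is maintained by injected androgen in the absence of testes. The arrays are labelled as separate samples, and the p values measure only the spread between these samples. In whole tissue, more cells of a type cannot be told apart from more RNA per cell.

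Keratins form the intermediate filaments of epithelial cells. A filament is built from pairs of an acidic (type I) and a basic (type II) keratin, and which pair is made depends on the cell type. In the prostate, secretory luminal cells are known for keratin 8 and its partner keratin 18, and the basal cells beneath them for keratin 5 with keratins 14 and 15. Hair keratins and most suprabasal keratins belong to hair follicles and stratified epithelia. Of the 44 genes on the array, 24 encode type I and 20 type II keratins. In the rat genome the type I genes lie together on chromosome 10 and the type II genes on chromosome 7, except that the type I gene Krt18 lies beside Krt8 on chromosome 7.

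Promoter windows (250 bases before to 50 bases after the start of the gene, RefSeq, assembly GRCr8) were given for 33 of the 44 genes. The 3 windows shown belong to the gene with the greatest difference under ghrelin (Krt23) and to the neighbouring partner genes Krt8, which was called in BPH, and Krt18, which was not. Capitals mark matches, on either strand, to 4 short motifs, namely the TATA box, searched as TATAAA, the half-site of the androgen receptor, searched as AGAACA, the AP-1 site, searched as TGANTCA, and the GC box, searched as GGGCGG.
Krt23, chr10:84946880-84947179, minus strand: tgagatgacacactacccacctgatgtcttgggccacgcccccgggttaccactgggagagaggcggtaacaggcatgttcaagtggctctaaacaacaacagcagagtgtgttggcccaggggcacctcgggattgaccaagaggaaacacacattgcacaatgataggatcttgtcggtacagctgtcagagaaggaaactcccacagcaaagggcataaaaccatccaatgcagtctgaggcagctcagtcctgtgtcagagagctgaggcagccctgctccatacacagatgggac
Krt8, chr7:135010290-135010589, minus strand: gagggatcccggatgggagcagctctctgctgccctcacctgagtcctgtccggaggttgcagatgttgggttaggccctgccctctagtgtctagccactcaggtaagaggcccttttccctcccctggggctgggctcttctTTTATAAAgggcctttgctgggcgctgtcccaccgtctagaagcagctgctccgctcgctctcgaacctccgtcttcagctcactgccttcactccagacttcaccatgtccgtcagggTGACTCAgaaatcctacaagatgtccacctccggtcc
Krt18, chr7:135035918-135036217, plus strand: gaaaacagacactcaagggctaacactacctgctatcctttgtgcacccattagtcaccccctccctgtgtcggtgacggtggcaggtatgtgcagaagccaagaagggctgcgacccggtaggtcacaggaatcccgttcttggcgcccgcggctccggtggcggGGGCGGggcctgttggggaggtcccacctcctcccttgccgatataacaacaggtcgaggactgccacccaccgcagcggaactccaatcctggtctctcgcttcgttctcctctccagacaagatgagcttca
The starts of Krt8 and Krt18 lie 25829 bases apart. The window of Krt8 holds TATAAA, read on both strands in the overlapping run of capitals, and TGACTCA after its start, whereas that of Krt18 holds GGGCGG alone and that of Krt23 none of the 4. TATAAA was found in 17 of the 33 keratin windows and in 14.2% of 33465 windows of all genes. GGGCGG was found in 6 of 33 and in 33.1% of all, AGAACA in 3 of 33 and in 20.7% of all, and TGANTCA in 2 of 33 and in 7.33% of all. A match gives letters in this window only.

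The 9 arrays differed in brightness. The 75th percentile of the raw signal ranged from 787 to 1065 in BPH, from 636 to 726 in BPH+ghrelin, and from 327 (sham replicate 2) to 738 in sham. Well above background were 61.4% of the probes on sham replicate 2 and 69.5% to 75.05% on the other arrays. The 3 BPH arrays belonged to the same scan as BPH+ghrelin replicate 1. BPH+ghrelin replicates 2 and 3 belonged to another scan with sham replicates 1 and 2, and sham replicate 3 to a scan of its own. Arrays of the same scan were taken to share a slide, which is an inference and was not tested. The word slide stands for such a group of arrays throughout. In each group the signal of 1 array lay between those of the others at most probes (BPH replicate 2 at 70.5%, BPH+ghrelin replicate 2 at 68.2%, sham replicate 3 at 72.7% of 22568 probes), where arrays that vary independently would each do so at 33.3%. If arrays of a group share RNA, the standard errors and p values given here are too small, which was not tested. Among the 25 keratins tested, the same 3 arrays lay between the others for 14, 14 and 19 genes. All 10 general epithelial markers were well above background on every array, as were the 7 markers of rat prostate secretory epithelium on the array.

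Signals are given as quantile-normalized log2 signal of the probe. They show how a probe differs between arrays, not how abundant its mRNA is against another. Of the 46 keratin probes, 16 were well above background on 9 of 9 arrays, 12 on 1 to 8 arrays, and 18 on 0 of 9 arrays. Detected on every array were the 8 luminal and basal keratins and also Krt4, Krt6c, Krt9, Krt25, Krt33a, Krt80, Krt81 and Krt87. Detected on no array were Krt1, Krt2, Krt13, Krt16, Krt26, Krt27, Krt34, Krt36, Krt39, Krt40, Krt42, Krt73, Krt82, Krt84, Krt85 and Krt90, most of which are keratins of epidermis and hair. Krt6c had 3 probes, of which the other 2 were not well above background on any array. A gene entered a comparison if at least 3 of the 6 arrays showed its probe well above background, which let 25 keratins into at least 1 comparison and 20 into all of them. The other 19 were not tested.

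**Figure D1:**
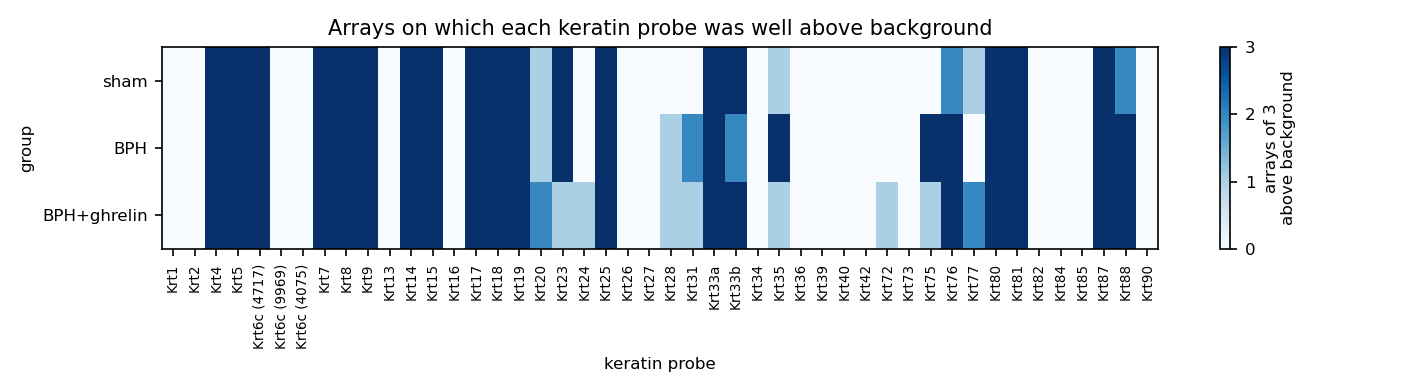
Number of arrays (0 to 3, colour) in each group (rows) on which each of the 46 keratin probes (columns) was well above background. Probes of luminal and basal keratins were detected on all arrays, whereas Krt23 was detected on 3 sham arrays, 3 BPH arrays and 1 BPH+ghrelin array, and Krt75 on 0, 3 and 1.

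The comparison of BPH with sham addresses castration with DHT. BPH and sham arrays shared no slide and are linked only through the slides of the BPH+ghrelin arrays. Krt8 of luminal cells, Krt14 and Krt17 of basal cells, Krt76 of oral epithelium and Krt75 of the hair follicle were higher in BPH, and the hair keratin Krt33b and Krt6c were lower. Of 22 keratins tested, 7 passed the threshold (limma adjusted p under 0.05), 5 higher and 2 lower, where 4.33% of 19552 genes did (2.15% higher, 2.18% lower). The 5 include Krt75, which was tested only because it was detected in BPH. Among genes well above background on all 6 arrays, 4 of 17 keratins and 6.55% of 16279 genes passed. Sham and BPH arrays were fully separate for 11 of 22 keratins and for 31.3% of all genes. An unadjusted p under 0.05 was found for 11 of 22 keratins and for 26.5% of all genes. The median difference was 0.56 for the 4 luminal keratins and 0.75 for the 4 basal keratins on the log2 scale, while it was 0.04 over all genes tested.

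Krt8 encodes the type II keratin of luminal cells. Its signal was 10.74, 10.38 and 10.59 on the sham arrays, 11.56, 11.53 and 11.49 on the BPH arrays, and 11.43, 11.30 and 11.23 on the BPH+ghrelin arrays. All 6 arrays of rats given DHT were above all 3 sham arrays. Krt8 was 1.94-fold higher in BPH than in sham (log2 difference 0.96, SE 0.13, limma adjusted p = 0.00910). This call was lost without BPH replicate 2 (adjusted p = 0.0655) and without sham replicate 3 (adjusted p = 0.0507). It was also lost when the 6 arrays compared were normalized and fitted alone (adjusted p = 0.0554).

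Krt18, the type I partner of Krt8, was among the brightest keratin probes. Its signal was 14.37, 14.73 and 14.57 in sham, 14.68, 14.40 and 13.97 in BPH, and 14.57, 14.27 and 14.18 in BPH+ghrelin, and all 3 groups overlapped. The log2 difference of BPH to sham was -0.21 (95% interval -0.68 to 0.26, limma adjusted p = 0.534), so that an increase as great as that of Krt8 lay outside the interval. Within each array, the Krt8 probe minus the Krt18 probe gave -3.99 ± 0.36 in sham, -2.82 ± 0.33 in BPH and -3.02 ± 0.10 in BPH+ghrelin (mean ± SD of log2 values, n = 3). The sham arrays (-4.35 to -3.63) were below all other arrays (-3.14 to -2.47). How often other pairs of probes separate in this way was not tested. With 3 against 3 arrays an exact permutation test (two-sided) cannot give a p under 0.1.

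Krt19 and Krt7 are further keratins of luminal and ductal cells. Krt19 ranged from 10.19 (sham replicate 2) to 11.36 in sham, from 11.28 to 11.81 in BPH and from 11.30 to 11.58 in BPH+ghrelin, so that the groups overlapped. Its difference of BPH to sham was 0.68 (SE 0.29, limma adjusted p = 0.185). With 1 array left out, the Krt19 difference was 0.33 (without sham replicate 2) to 0.92. Krt7 was 6.62, 6.82 and 6.67 in sham and 6.97, 7.18 and 7.32 in BPH, with no overlap, and its difference of 0.45 (SE 0.13) did not pass the threshold (adjusted p = 0.0887).

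All 4 basal keratins had a higher mean in BPH than in sham, and 2 of them passed the threshold. Krt17, a keratin of basal cells and of injured epithelium, was 6.48, 5.81 and 6.12 in sham, 7.30, 7.02 and 6.94 in BPH, and 6.89, 6.68 and 6.68 in BPH+ghrelin. It was 1.93-fold higher in BPH (log2 difference 0.95, SE 0.19, limma adjusted p = 0.0356). Krt14, the common type I keratin of basal cells, was 9.05, 8.53 and 8.76 in sham, 9.64, 9.49 and 9.37 in BPH, and 9.17, 9.26 and 9.35 in BPH+ghrelin. It was 1.65-fold higher in BPH (log2 difference 0.72, SE 0.16, adjusted p = 0.0447). For both genes the BPH arrays were above all sham arrays. Krt17 lost its call without BPH replicate 1 (adjusted p = 0.0778), 2 (0.143) or 3 (0.0761) and without sham replicate 3 (0.126). Krt14 lost its call without BPH replicate 1 (0.0948), 2 (0.179) or 3 (0.0874) and without sham replicate 2 (0.0570) or 3 (0.146).

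Krt15 marks basal cells and was the brightest basal keratin probe. Its signal was 11.04, 11.38 and 11.05 in sham, 11.50, 11.97 and 12.32 in BPH, and 12.37, 12.36 and 12.36 in BPH+ghrelin. The 3 groups did not overlap, and the BPH+ghrelin arrays were within 0.01 (SD) of each other. The difference of BPH to sham, 0.77 (SE 0.21), did not pass the threshold (limma adjusted p = 0.0714), but it did without BPH replicate 1 (0.99, adjusted p = 0.0345). Krt5, the type II partner in basal cells, was 6.19, 5.19 and 5.99 in sham, 6.04, 5.99 and 6.26 in BPH, and 5.66, 5.37 and 5.31 in BPH+ghrelin. Here sham and BPH overlapped (difference 0.30, 95% interval -0.28 to 0.88, adjusted p = 0.456), and the low value of sham replicate 2 set the spread. With 1 array left out, the Krt5 difference was 0.0043 (without sham replicate 2) to 0.50.

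**Figure D2:**
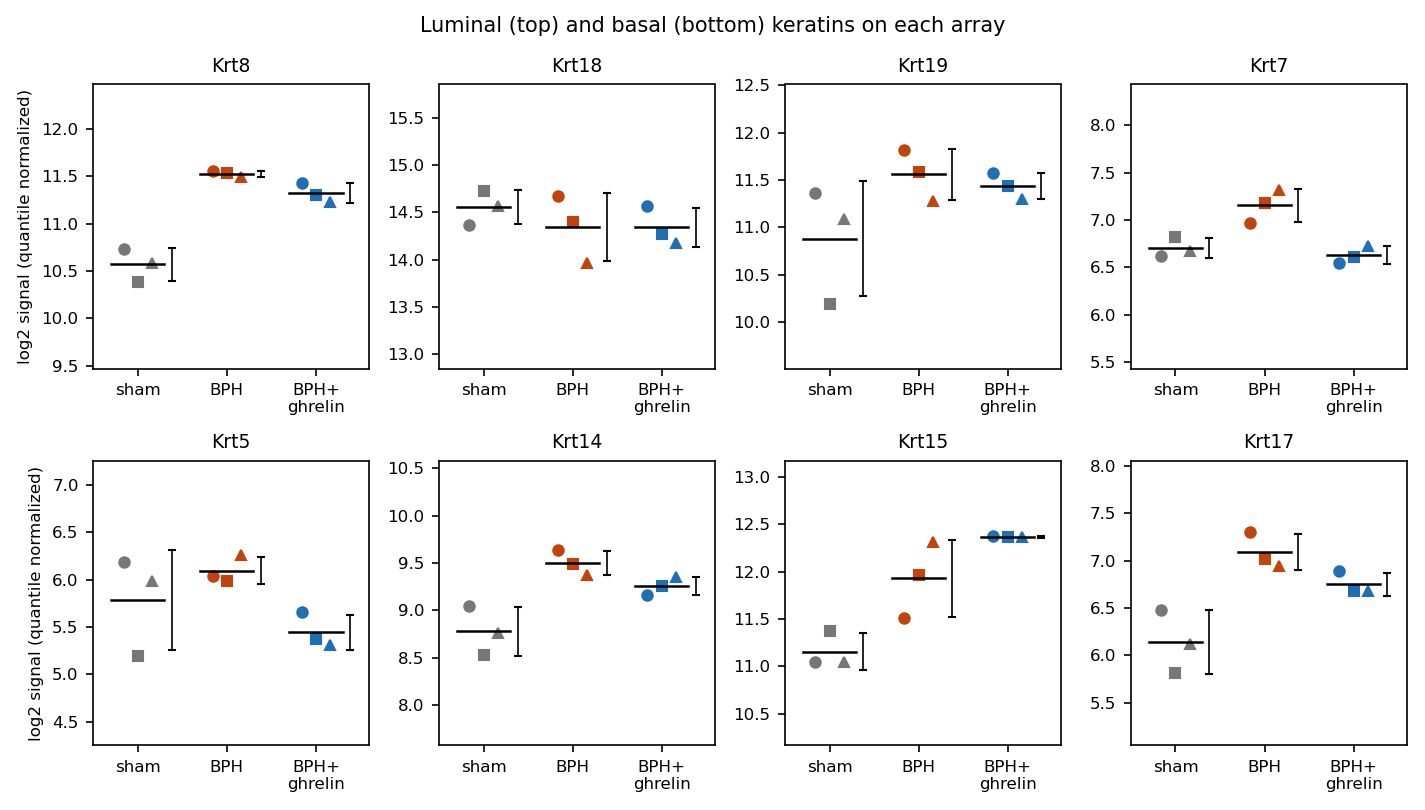
Quantile-normalized log2 signal of the 4 luminal (top) and 4 basal (bottom) keratins on each array of the sham, BPH and BPH+ghrelin groups. Circles, squares and triangles are replicates 1, 2 and 3, horizontal lines are means, bars are SD (n = 3), and each panel has its own axis. Krt8 in BPH lies between 11.49 and 11.56, above all sham arrays, whereas Krt18 overlaps in all groups.

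Among the other keratins, the differences of BPH to sham pointed in both directions. Krt75, a type II keratin of the companion layer of hair follicles, was well above background on all 3 BPH arrays (3.16, 2.90 and 3.11) and on 0 of 3 sham arrays (1.499, 0.64 and 1.41). Its limma adjusted p was 0.00910. The lowest signals that were well above background on the sham arrays were 2.79, 3.75 and 2.97, close to the BPH values, so that no fold is given. Krt75 entered this comparison only through the BPH arrays, where it was high, so that its call is not independent of the filter.

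Krt76, a type II keratin of the hard palate and other oral epithelia, was 3.45, 3.74 and 3.56 in sham, 4.60, 4.503 and 4.42 in BPH, and 3.56, 3.89 and 4.04 in BPH+ghrelin. It was 1.90-fold higher in BPH than in sham (log2 difference 0.93, SE 0.16, limma adjusted p = 0.0210). The BPH arrays did not overlap with those of the other groups. The probe was well above background on 2 of 3 sham arrays, so that the sham mean is partly at background. The call was lost without BPH replicate 1 (adjusted p = 0.0515), 2 (0.113) or 3 (0.0588) and without sham replicate 3 (0.0942).

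Krt33b, a type I keratin of the hair shaft, was 4.45, 5.06 and 4.54 in sham, 3.24, 3.09 and 2.92 in BPH, and 3.78, 4.08 and 4.22 in BPH+ghrelin. All 3 groups were separate, with BPH lowest, where 2 of 3 arrays were well above background. Krt33b was 3.03-fold lower in BPH than in sham (log2 difference -1.60, SE 0.20, limma adjusted p = 0.00691), a call kept when each of the 6 arrays was left out in turn (-1.72 to -1.41). Krt6c, which has no class here, was 4.60, 4.80 and 4.86 in sham, 4.12, 4.19 and 3.87 in BPH, and 5.00, 4.92 and 4.96 in BPH+ghrelin. It was 1.62-fold lower in BPH than in sham (log2 difference -0.69, SE 0.13, adjusted p = 0.0316). Whether its probe also binds RNA of other Krt6 genes was not tested. That call was lost without BPH replicate 1 (adjusted p = 0.0544), 2 (0.112) or 3 (0.0786) and without sham replicate 3 (0.126).

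The hair shaft keratins tested numbered 6, with a median difference of -0.45, and only Krt33b passed the threshold. Krt33a, the close copy of Krt33b, was 5.22, 7.37 and 6.23 in sham and 5.05, 5.17 and 5.87 in BPH (difference -0.91, SE 0.51, limma adjusted p = 0.287). Whether the probes of such copies bind each other's RNA was not tested. Krt4 of stratified mucosa (-0.74), Krt9 of palm and sole (-0.55), Krt35 (0.60), Krt87 (-0.46) and Krt88 (-0.43) of the hair shaft, Krt25 of the inner root sheath (-0.23) and Krt81 (0.06) did not pass the threshold. For Krt80, a keratin of simple and stratified epithelia, the sham arrays ranged from 6.32 to 10.69 (SD 2.25), and the interval of its difference was -2.54 to 1.69. Without sham replicate 1 the difference was -1.67 and passed (limma adjusted p = 0.0276), and without sham replicate 2 it was 0.52. Krt9 passed as well without sham replicate 1 (-0.84, adjusted p = 0.0318). The 11 keratins tested with a mean signal under 5 had a median difference of -0.43, where all genes of that brightness had 0.05.

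The slide, the background correction, the arrays fitted together and the filter on dim probes bear on these calls. When the 6 arrays compared were normalized and fitted alone, Krt8 (limma adjusted p = 0.0554), Krt14 (0.128), Krt17 (0.114), Krt76 (0.0526) and Krt6c (0.112) were not called. Without a filter on dim probes 5 of 44 keratins were called, and Krt14 (0.0642) and Krt17 (0.0533) were not. With slide as a block, 0 of 22 keratins and 2 of 19552 genes passed the threshold, while the difference was 0.80 for Krt8, 0.73 for Krt17, 0.85 for Krt14, 1.33 for Krt76, -1.30 for Krt33b and -0.70 for Krt6c (adjusted p from 0.347 to 0.837). After normexp background correction with an offset of 50, which shrinks the differences of dim probes, Krt75 was not called, and neither were Krt76 (0.18), Krt33b (-0.25) or Krt6c (-0.14), while Krt17 was called at 0.51.

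**Figure D3:**
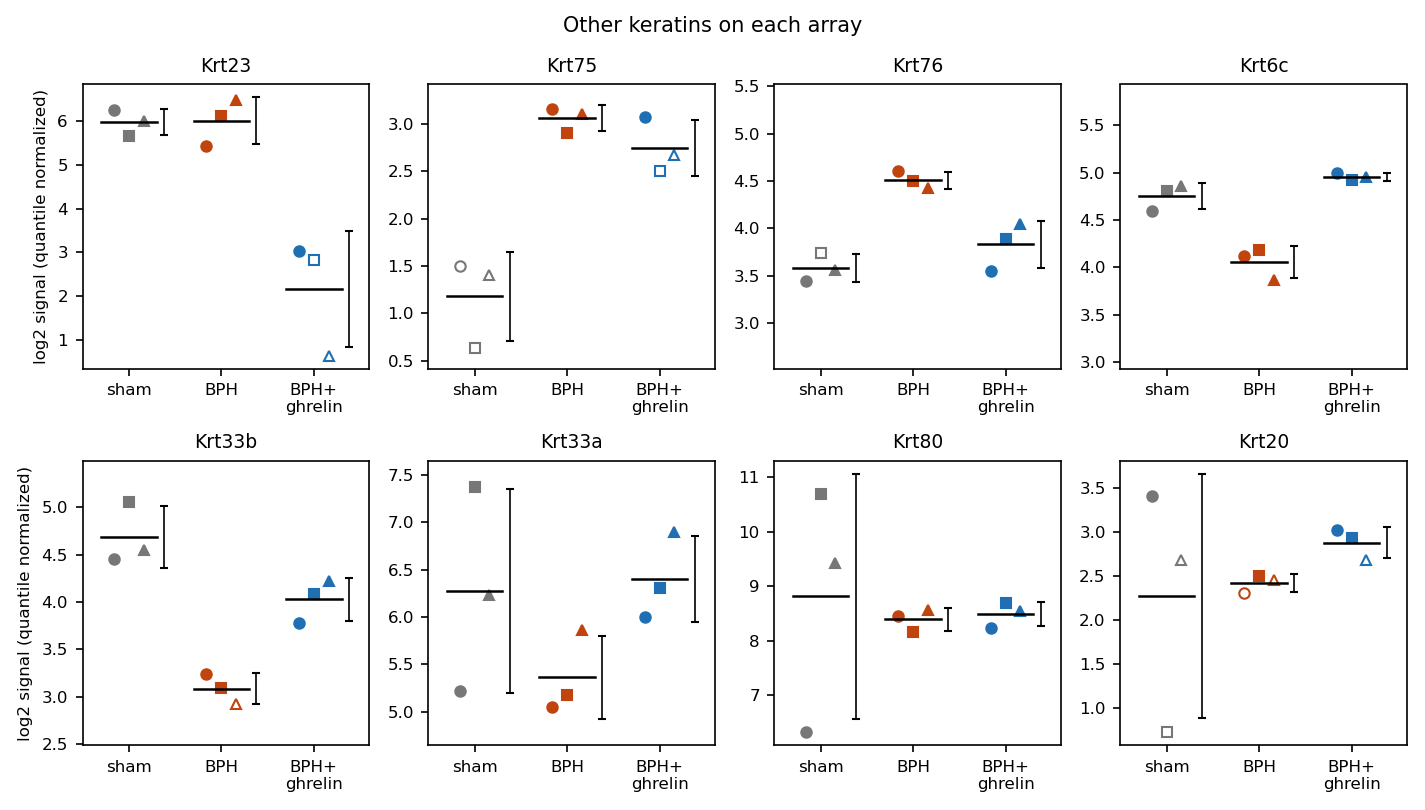
Quantile-normalized log2 signal of 8 keratins outside the luminal and basal classes on each array of the 3 groups. Filled symbols were well above background and open symbols were not, circles, squares and triangles are replicates 1, 2 and 3, lines are means and bars are SD (n = 3), and each panel has its own axis. Krt23 in BPH+ghrelin (0.64 to 3.04) lies below all other arrays (5.43 to 6.48), and Krt33b in BPH lies below both other groups.

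The comparison of BPH+ghrelin with BPH addresses ghrelin in rats with the same castration and DHT. BPH+ghrelin replicates 2 and 3 were on another slide than all BPH arrays, and with slide as a block 0 of 24 keratins and 2 of 19749 genes passed. Krt23 was lower and Krt6c higher in BPH+ghrelin, and no luminal or basal keratin passed the threshold. When the 6 arrays were normalized and fitted alone, Krt5 (-0.66, limma adjusted p = 0.0413), Krt7 (-0.53, 0.0495), Krt76 (-0.69, 0.0429), Krt33b (0.96, 0.0259), Krt87 (0.72, 0.0474) and Krt9 (0.68, 0.0256) passed as well. In the analysis as reported, 2 of 24 keratins (Krt23 and Krt6c) passed (limma adjusted p under 0.05), where 1.48% of 19749 genes did (0.496% higher, 0.987% lower). Krt23 was tested only because it was detected in BPH, where it was high. Among genes well above background on all 6 arrays, 1 of 18 keratins (Krt6c) and 1.48% of 17740 genes passed. An unadjusted p under 0.05 was found for 9 of 24 keratins and for 21.1% of all genes. BPH and BPH+ghrelin arrays were fully separate for 17 of 24 keratins and for 39.2% of all genes.

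Krt23 encodes a type I keratin of glandular and other simple epithelia. Its signal was 6.26, 5.67 and 6.01 in sham, 5.43, 6.11 and 6.48 in BPH, and 3.04, 2.83 and 0.64 in BPH+ghrelin. Sham and BPH overlapped, and every BPH+ghrelin array was below every other array. The probe was detected above background on 3 of 3 sham, 3 of 3 BPH and 1 of 3 BPH+ghrelin arrays (replicate 1), so that Krt23 entered the comparisons with BPH+ghrelin through the arrays of the group where it was high. The log2 difference of BPH+ghrelin to BPH was -3.84 (SE 0.60, limma adjusted p = 0.0301). The BPH+ghrelin arrays not well above background were then set to the lowest signal that was, or to their own if higher. Krt23 was then 8.36-fold lower. This fold is not a strict lower bound. On replicate 2 the probe, at 2.83, was not well above background, although a signal of 2.76 on that array was.

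The size and the call of Krt23 depended on the arrays and the processing. The difference ranged from -4.27 to -3.07 when 1 array was left out, and the call was lost without BPH replicate 1 (adjusted p = 0.0961), 2 (0.164) or 3 (0.0522) and without BPH+ghrelin replicate 2 (0.112). With slide as a block, which here compares the 3 BPH arrays with BPH+ghrelin replicate 1 on their shared slide, the difference was -2.97 (adjusted p = 0.340). That single array is assumed to vary like the others, as the fit pools the spread. With normexp it was -0.90 and passed (adjusted p = 0.0242). The neighbours of Krt23 on chromosome 10 were Krt20, with a difference of 0.46 (SE 0.57, adjusted p = 0.673) near the background limit, and Krt39, detected on no array.

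Krt6c was 1.87-fold higher under ghrelin than in BPH alone (log2 difference 0.90, SE 0.13, limma adjusted p = 0.0250), with the arrays given above and no overlap. This call was lost without BPH replicate 1 (adjusted p = 0.0961) or 2 (0.145) and without BPH+ghrelin replicate 1 (0.0670), 2 (0.121) or 3 (0.0818). On the shared slide, again with BPH+ghrelin replicate 1 alone, the difference was 0.94 (adjusted p = 0.256), and with normexp it was 0.22 (adjusted p = 0.148).

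The 4 luminal keratins all had a lower mean in BPH+ghrelin than in BPH, with a median difference of -0.16 beside 0.02 over all genes. Krt7 was 6.54, 6.61 and 6.73 in BPH+ghrelin, below all BPH arrays (difference -0.52, SE 0.13, limma adjusted p = 0.0927). The difference was -0.21 for Krt8 (95% interval -0.50 to 0.09), -0.12 for Krt19 (-0.79 to 0.55) and -0.01 for Krt18 (-0.48 to 0.47). Dividing each array by its own 75th percentile, which moved the median of all genes to 0.10, turned the signs of Krt18 (0.43) and Krt19 (0.09). Among the basal keratins the median was -0.29, with Krt5 at -0.65 (SE 0.25, adjusted p = 0.198), Krt17 at -0.34, Krt14 at -0.24 and Krt15 at 0.44 (SE 0.21, adjusted p = 0.266). For all 4 basal keratins the BPH and BPH+ghrelin arrays were fully separate, as they were for 39.2% of all genes.

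Of 7 hair shaft keratins tested, 5 had a higher and 2 a lower mean in BPH+ghrelin than in BPH (median 0.56), and 0 passed the threshold. The differences were 0.95 for Krt33b (SE 0.20, limma adjusted p = 0.0607), 0.72 for Krt87 (0.17, 0.0791), 0.56 for Krt88, 1.04 for Krt33a (0.51, 0.288) and 0.39 for Krt81. With scaling to the 75th percentile, Krt33b was at 1.11 and passed (limma adjusted p = 0.0322). The differences were -0.89 for Krt31 and -0.84 for Krt35, whose probes passed the background limit on 1 of 3 arrays each in the ghrelin group. Krt76 was lower in BPH+ghrelin in all arrays (-0.68, SE 0.16, adjusted p = 0.0737), and Krt9 was higher in all (0.68, SE 0.26, adjusted p = 0.190). The values of Krt75 (-0.31), Krt25 (0.41), Krt4 (0.30) and Krt80 (0.10) did not pass either. Both comparisons use the same BPH arrays, so that a high BPH value gives opposite signs in them.

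**Figure D4:**
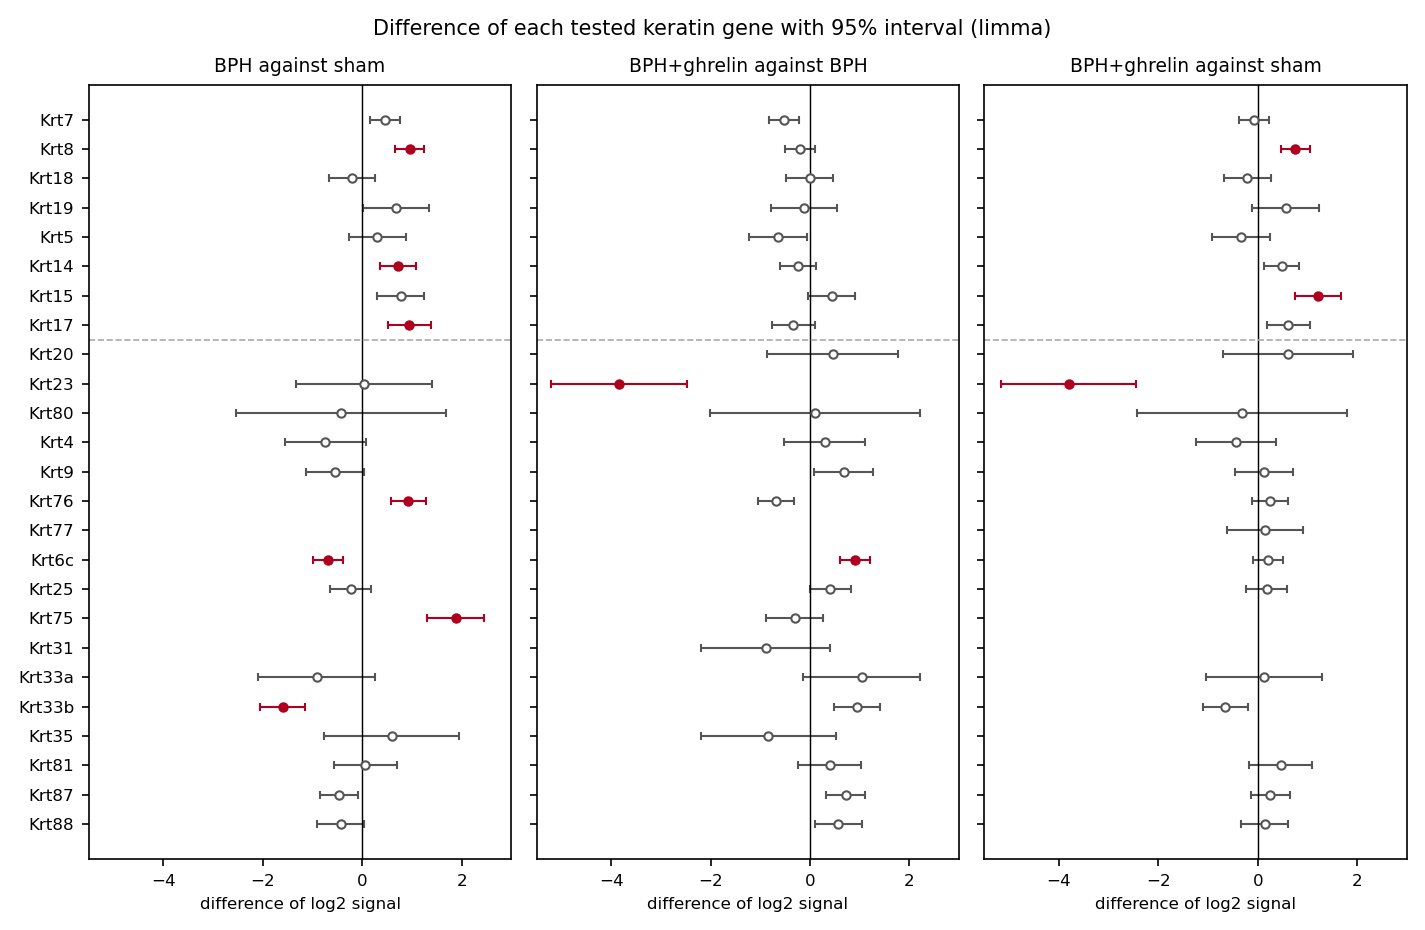
Difference of log2 signal (point) with its 95% interval (bar, limma) for each keratin tested in BPH against sham, BPH+ghrelin against BPH, and BPH+ghrelin against sham. Filled red points passed an adjusted p under 0.05, and the dashed line separates the luminal and basal keratins (above) from the others. Krt23 stands at -3.84 and -3.81 in the comparisons with BPH+ghrelin and at 0.03 in BPH against sham.

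BPH+ghrelin was also compared with sham, a contrast of castration, DHT and ghrelin together that shares its arrays with both comparisons above. Krt15 and Krt8 were higher and Krt23 was lower in BPH+ghrelin. These 3 of 22 keratins passed the threshold, where 6.30% of 19197 genes did (3.00% higher, 3.30% lower). With the limit to genes well above background on all 6 arrays, 2 of 17 keratins and 7.39% of 16213 genes did. The arrays were fully separate for 7 of 22 keratins and 30.4% of all genes. An unadjusted p under 0.05 was found for 6 of 22 keratins and for 23.7% of all genes. Krt15 was 2.31-fold higher (log2 difference 1.21, SE 0.20, limma adjusted p = 0.0169) and Krt8 1.69-fold higher (0.75, SE 0.13, adjusted p = 0.0169). Krt23 had a difference of -3.81 (SE 0.60, limma adjusted p = 0.0128). With dim arrays set to the background limit as above, it was 8.19-fold lower, again without a strict lower bound. The median difference was 0.24 for the luminal and 0.54 for the basal keratins, beside 0.04 for all genes.

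Krt17 (0.61, limma adjusted p = 0.0970), Krt14 (0.48, 0.111), Krt19 (0.56, 0.288), Krt33b (-0.66, 0.0903) and Krt20 (0.61, 0.570) did not pass, and neither did Krt5 (-0.34), Krt18 (-0.21), Krt7 (-0.07) or Krt6c (0.20). Without sham replicate 2, Krt5 was at -0.64 and passed (adjusted p = 0.0430). With scaling to the 75th percentile, Krt33b was at -0.79 and passed (limma adjusted p = 0.0427). Without sham replicate 1, Krt14 (0.61, 0.0450), Krt17 (0.78, 0.0377) and Krt80 (-1.57, 0.0404) passed. Without sham replicate 3, 0 keratins passed, with an adjusted p of 0.0579 for Krt23, 0.0784 for Krt15 and 0.0755 for Krt8. Krt15 was lost as well without BPH+ghrelin replicate 1 (0.0580), 2 (0.0802) or 3 (0.0518), and Krt8 without BPH+ghrelin replicate 1 (0.0599) or 2 (0.0873). Within the slide that holds BPH+ghrelin replicates 2 and 3 and sham replicates 1 and 2, the differences were -4.23 for Krt23 (0.0943), 1.15 for Krt15 (0.195) and 0.71 for Krt8 (0.198). With normexp, Krt23 passed at -0.89.

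The difference between keratin probes on the same array was computed for 7 pairs, of which Krt8 minus Krt18 is given above. Krt5 minus Krt8, a basal against a luminal type II keratin, was -4.78 ± 0.36 in sham, -5.44 ± 0.17 in BPH and -5.88 ± 0.09 in BPH+ghrelin (mean ± SD, n = 3). The 3 groups did not overlap. Krt5 minus Krt14, the partners of basal cells, was -2.99 ± 0.31, -3.41 ± 0.25 and -3.81 ± 0.27, with overlap between neighbouring groups. Krt15 minus Krt14, both type I keratins of basal cells, was 2.37 ± 0.43 in sham, 2.43 ± 0.54 in BPH and 3.11 ± 0.09 in BPH+ghrelin, where the BPH+ghrelin arrays (3.02 to 3.204) were above all others (1.87 to 2.94). Krt5 minus Krt15 was -5.37 ± 0.72, -5.84 ± 0.32 and -6.92 ± 0.18, with the BPH+ghrelin arrays below all others. In the other luminal pairs all groups overlapped, with -0.31 ± 0.44, -0.03 ± 0.24 and -0.12 ± 0.04 for Krt8 minus Krt19 and -4.18 ± 0.72, -4.40 ± 0.44 and -4.81 ± 0.23 for Krt7 minus Krt19. These are log2 ratios of probes and carry no information on which mRNA was more abundant. The choice of the 7 pairs followed no stated rule, and how often other pairs of probes separate the groups was not tested. Single genes were fully separate at 31.3% in BPH against sham, 39.2% in BPH+ghrelin against BPH and 30.4% in BPH+ghrelin against sham.

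**Figure D5:**
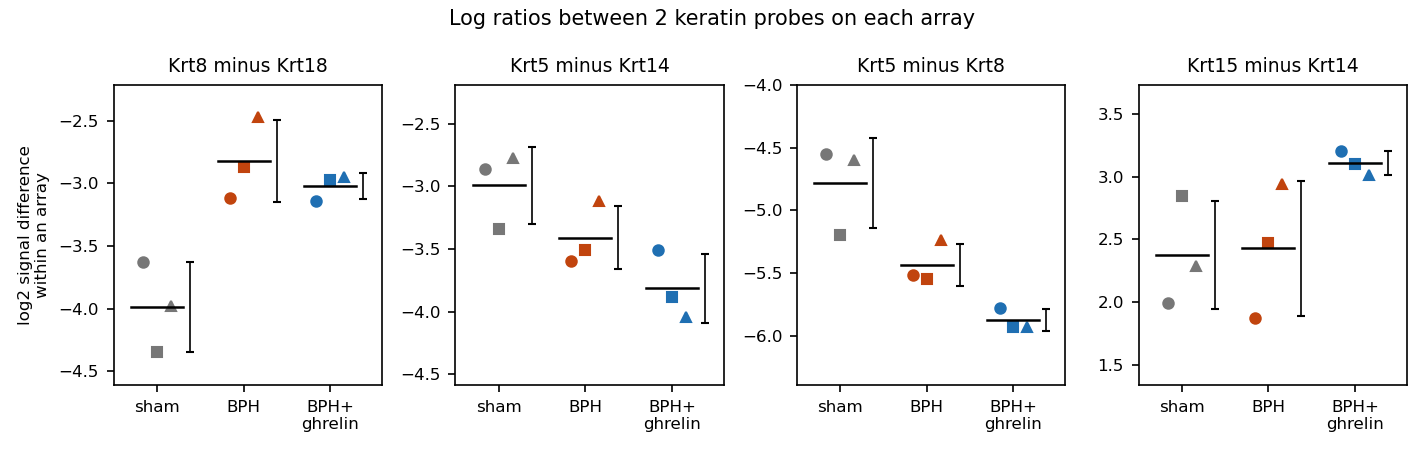
Log2 difference between pairs of keratin probes within each array for the sham, BPH and BPH+ghrelin groups. Circles, squares and triangles are replicates 1, 2 and 3, lines are means, bars are SD (n = 3), and each panel has its own axis. Krt8 minus Krt18 is lower on the sham arrays (-4.35 to -3.63) than on all others, and Krt5 minus Krt8 is lowest in BPH+ghrelin.

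Genes that work with keratins were described beside them. Desmosomes and hemidesmosomes anchor keratin filaments to the membrane, and 7 of 13 listed anchor genes were tested. Among them 0 passed the threshold in any comparison. Over all genes, 4.33% passed in BPH against sham, 1.48% in BPH+ghrelin against BPH and 6.30% in BPH+ghrelin against sham. Of the 7, 6 had a higher mean in BPH than in sham (median 0.35), as had 10506 of all 19552 genes (median 0.04). The desmosomal plaque protein Pkp3 had a difference of 0.82 (SE 0.24, limma adjusted p = 0.0835), and the plakin Ppl one of -0.88 (SE 0.32, adjusted p = 0.174) in BPH+ghrelin against BPH. Of 7 other genes of intermediate filaments, Vim, which encodes vimentin of mesenchymal cells, was lower in BPH+ghrelin than in BPH (-1.28, SE 0.19, adjusted p = 0.0252). In that comparison 1.48% of all genes were called. In BPH against sham Vim was at 0.73 (SE 0.19, adjusted p = 0.0679) and Lmnb1, which encodes lamin B1 of the nuclear lamina, at -1.08 (adjusted p = 0.343).

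Of 6 genes of squamous differentiation tested, 2 were called in BPH against sham, where 4.33% of 19552 genes were. Lgals7, which encodes galectin-7 of stratified epithelia, was higher in BPH (1.65, SE 0.20, limma adjusted p = 0.00599) and in BPH+ghrelin (2.24, adjusted p = 0.00109) than in sham. Dmkn, which encodes dermokine of stratified epithelia, was well above background on all BPH and BPH+ghrelin arrays and on 0 of 3 sham arrays. Against the background limit it was at least 2.56-fold higher in BPH (adjusted p = 0.0178) and at least 1.76-fold higher in BPH+ghrelin (adjusted p = 0.0293) than in sham. Like Krt75, it entered these comparisons only through the arrays where it was high, while in BPH+ghrelin against BPH 0 of 6 passed. The list had a median of 0.03 in BPH against sham, since the other 4 genes lay between -0.41 and 0.12. Of 11 transcription factors known to act on keratin genes, such as Klf4, Klf5 and Gata3, 0 passed in any comparison. Of all genes, 4.33%, 1.48% and 6.30% passed in the 3 comparisons, in the order given above. The median of the 11 was -0.06 in BPH against sham and -0.13 in BPH+ghrelin against BPH. The widest difference among them in BPH+ghrelin was that of Klf5, with -0.61 against BPH (limma adjusted p = 0.504) and -0.60 against sham (adjusted p = 0.510).

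Markers of the cells in the tissue also differed between the groups. All 10 general epithelial markers had a higher mean in BPH than in sham (median 0.46, 1 called, Spint1 at 0.96) and a lower mean in BPH+ghrelin than in BPH (median -0.43, 0 called). Of 10 genes of smooth muscle and stroma, 9 had a higher mean in BPH than in sham (median 0.28, 0 called). In BPH+ghrelin, 9 of the 10 had a lower mean than in BPH, and Lum (-1.65) and Myh11 (-0.96) were called. Over all genes, 4.33% were called in BPH against sham, 1.48% in BPH+ghrelin against BPH and 6.30% in BPH+ghrelin against sham. A higher mean in BPH than in sham was found for 10506 of all 19552 genes. A lower mean in BPH+ghrelin than in BPH was found for 9542 of 19749. Basal markers other than keratins had a median of 0.22 in BPH against sham and of 0.15 in BPH+ghrelin against BPH, over 4 genes with 0 called in each. Of these, Lamb3 of the hemidesmosomal matrix was called in BPH+ghrelin against sham (1.23, limma adjusted p = 0.0109). Tp63, the transcription factor that marks basal cells, pointed the other way without passing, with -0.73 in BPH (adjusted p = 0.112) and -0.57 in BPH+ghrelin (adjusted p = 0.191) against sham. The part of cell composition in the keratin differences was not tested.

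Other tissues that can lie in or near a prostate sample differed between groups as well. The summed signal of 7 genes of seminal vesicle and coagulating gland was 16.5 to 17.3 (log2) in sham, 9.54 to 14.8 in BPH and 9.17 to 12.0 in BPH+ghrelin, and 5 of the 7 were well above background on all sham arrays, 5 on all BPH arrays and 3 on both. Svs3a, Svs3b and Svs4 were called lower in BPH than in sham, and these with Semg1 and Tgm4 were called lower in BPH+ghrelin than in sham (limma). Over all genes, 4.33% and 6.30% were called in these comparisons. Svs5 and Svs6 went the other way without passing, with 0.26 and 1.27 in BPH and 0.52 and 0.32 in BPH+ghrelin against sham. Svs3b, detected on 3 sham, 1 BPH and 0 BPH+ghrelin arrays, entered both comparisons through the sham arrays, where it was high. Of the genes of the secretory epithelium, Pbsn, which encodes the androgen-dependent secretory protein probasin, was lower in BPH (-2.65) and in BPH+ghrelin (-1.89) than in sham, and Msmb, which encodes a secreted microseminoprotein, was called lower in BPH+ghrelin than in sham (-9.70, limma adjusted p = 0.0345). Of the urothelial genes, Upk1a was lower (-1.75) and Upk1b higher (1.28) in BPH than in sham, while the summed signal of 5 such genes was 8.74 to 9.60 in sham, 8.11 to 8.25 in BPH and 7.83 to 8.12 in BPH+ghrelin. The summed signal of 3 mesothelial genes was 7.75 to 8.38 in sham, 3.95 to 5.19 in BPH and 4.29 to 5.17 in BPH+ghrelin, and the differences of BPH to sham had both signs. Itln1 was well above background on 3 of 3 sham arrays and 1 of 3 BPH arrays and was called lower in BPH (limma adjusted p = 0.00910), although it entered the comparison through the sham arrays, where it was high. Msln was at -2.73 (adjusted p = 0.0560) and Wt1, detected on 1 sham and 3 BPH arrays, at 1.03 (adjusted p = 0.110) in BPH against sham, and neither passed. The part of these tissues in the keratin differences was not tested.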

How the data were processed

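The authors deposited the scanner output of each array as an intensity on a linear scale (Agilent Feature Extraction 11.0.1.1, background subtracted, not normalized between arrays; per the file headers, annotation on rn4). The authors also deposited a matrix of quantile-normalized log2 values, which was used only as an alternative. Outlier spots were removed, spots of a probe averaged, 11 of 30367 probes without a spot dropped, and the log2 signals quantile normalized over 9 arrays, the normalization named in the methods. Of the 30356 probes, 59.3% were named by accession through RefSeq (GRCr8, names and promoter windows only). Of several probes of a gene, the passing probe with the highest mean was used.

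Groups were compared with limma 3.58.1 (R 4.3.3, lmFit and eBayes, 3 groups, two-sided, Benjamini-Hochberg adjustment over all genes tested), and a call is an adjusted p under 0.05. The study's methods state no test for arrays. The number of arrays limits the precision. The analysis was tested on simulated data. The simulated arrays varied independently and held no slide difference, so that this test does not bear on shared RNA or slides. Named by rule were the luminal and basal keratins, keratins called, and the 8 with the largest differences per comparison (19 in all). Krt9, Krt25, Krt77, Krt80, Krt81 and Krt88 were chosen after their values were seen. Partner genes were named if called or among the 3 largest differences of a comparison, and other partner and marker genes as examples after their values were seen. The members and the 11 lists of partner and marker genes were chosen with earlier results of these data known. The result of 1 gene of the secretory epithelium list is not reported here.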

Additional observations from a re-analysis of the deposited data

How the results depend on the processing

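The number of arrays, the dimness of many keratin probes and the slides limit these results. In BPH+ghrelin against BPH, 2 keratins were called, and 1 with normexp, 1 with the filter on all 6 arrays, 8 when the 6 arrays compared were normalized and fitted alone, 0 with slide as a block (by construction the value within the shared slide, with 1 BPH+ghrelin array), 0 to 1 with 1 array left out, 6 with the adjusted p limit raised to 0.1 and 9 by p under 0.05 without adjustment. In BPH against sham, 7 were called, and 3 with normexp, 4 with the filter on all 6 arrays, 2 with the 6 arrays alone, 0 with slide as a block, 2 (without BPH replicate 2 or sham replicate 3) to 9 (without sham replicate 1) with 1 array left out (4 when BPH replicate 1 and 3 when BPH replicate 3 was the one left out), 11 by p under 0.05 without adjustment and 2 by at least 2-fold with no test. In BPH+ghrelin against sham, 3 were called, and 6 without a filter on dim probes, 0 with slide as a block (again the value within the shared slide), 0 (without sham replicate 3) to 6 (without sham replicate 1) with 1 array left out (1 without BPH+ghrelin replicate 1 or 2), 5 with the adjusted p limit raised to 0.1 and 6 by p under 0.05 without adjustment. The calls over all genes moved too. In BPH+ghrelin against BPH they were 293 of 19749, and 2101 with the 6 arrays alone, 2 with slide as a block and 3 to 398 with 1 array left out. In BPH against sham they were 847 of 19552, and 181, 2 and 119 to 3071. In BPH+ghrelin against sham they were 1210 of 19197 (6.30%), and 899, 84 and, with 1 array left out, from 1.16% of genes (without BPH+ghrelin replicate 2) up to 1926 genes (without sham replicate 2). The filter on all 6 arrays tests fewer keratins by construction, and the cause was not tested for the other settings.

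Same-numbered arrays of different groups correlated between -0.14 and 0.26 in their deviations from the group means. The arrays were therefore not paired by number in the analysis as reported. With 3 arrays per group, these correlations cannot settle whether the numbers pair the arrays. With a replicate block, 0 keratins were called in BPH+ghrelin against BPH, 4 in BPH against sham and 3 in BPH+ghrelin against sham, beside 17, 243 and 461 of all genes.

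The median of the luminal keratins in BPH+ghrelin against BPH moved from -0.16 to 0.041 with scaling to the 75th percentile and to -0.038 with slide as a block. That of the basal keratins moved from -0.29 to -0.22 with normexp and lay between -0.36, with BPH replicate 3 left out, and -0.20, with BPH replicate 1 left out. In BPH against sham, the luminal median was 0.38 for Krt8 and Krt18 alone and 0.42 (without sham replicate 2) to 0.66 with 1 array left out. Against sham, the luminal median in BPH+ghrelin was 0.10 (without sham replicate 2) to 0.34 with 1 array left out, and the basal median was 0.36 with normexp. The cause was not tested.

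None of the 12 called differences changed sign under the settings run. The groups did not overlap for any of the 12, so that leaving out 1 array could not turn these signs. Calls were also chosen for a large difference against the spread in the same arrays. Among the other 56 values of keratins tested, 17 did. In BPH+ghrelin against BPH, Krt18 was at 0.43 and Krt19 at 0.086 with scaling to the 75th percentile, Krt20 at -0.0020 and Krt75 at 0.0077 with normexp, and Krt18 at 0.22, Krt19 at 0.017, Krt35 at 0.20 and Krt75 at 0.019 and Krt80 at -0.15 with slide as a block. With 1 array left out, Krt18 was at -0.20 to 0.16, Krt19 at -0.26 to 0.0076 and Krt80 at -0.018 to 0.22. In BPH against sham, Krt23 was at -0.038 with scaling to the 75th percentile, -1.26 with slide as a block and -0.21 to 0.32 with 1 array left out, Krt35 at -0.56 with slide as a block and -0.044 to 0.997 with 1 array left out, Krt80 at 0.26 with slide as a block and -1.67 to 0.52 with 1 array left out, and Krt81 at -0.29 to 0.26 with 1 array left out. In BPH+ghrelin against sham, Krt33a was at -2.7e-05 with scaling to the 75th percentile, -0.028 with normexp and -0.40 to 0.67 with 1 array left out, Krt20 at -0.17 to 1.18, Krt88 at -0.030, -0.027 and -0.0072 with scaling, normexp and slide as a block and -0.039 to 0.29 with 1 array left out, Krt9 at -0.021 with scaling and -0.16 to 0.41, Krt77, at 0.14 in the analysis as reported, at -0.056 with normexp and -0.13 to 0.53, Krt25 at -0.071 with slide as a block, and Krt80 at 0.10 with slide as a block and -1.57 to 0.62 with 1 array left out. The cause was not tested.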
